A study of Homo sapiens and Mus musculus with 7 samples.

Results

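The genes described here are 9 components of erythropoietin signalling: the receptor gene EPOR, the kinase gene JAK2, the transcription factor genes STAT5A, STAT5B and STAT3, the target gene PIM1, and the inhibitor genes CISH, SOCS2 and SH2B3. They were chosen by name as parts of this pathway, and all 9 were found among 14903 genes in an RNA-seq table of HEL cells. HEL is a human erythroleukaemia cell line with erythroid and megakaryocytic features, and it carries an activating point mutation in the pseudokinase domain of JAK2. The 4 groups were KAP1 knockdown (KD) cells with hemin, KAP1 KD cells without hemin, control cells with hemin and control cells without hemin. Hemin, the oxidised form of haem that pushes such cells towards red cell features, was given at 50 µM for 5 days. KAP1, encoded by TRIM28, is a corepressor brought to chromatin by KRAB zinc finger proteins, and the labels do not say how it was knocked down. The control columns are headed Ctrl and were matched to the samples labelled KAP1 WT, the other genotype among the HEL samples. A single library stood for each group, with 250 ng of total RNA as input, so no difference below has a replicate check. The series, which by its title concerns KAP1, microRNAs and mitophagy in red cell formation, also holds KAP1 ChIP-seq of mouse erythroid cells, which was not used here.

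Erythropoietin is the hormone that keeps red cell precursors alive and dividing. Its receptor has no kinase activity of its own: ligand binding brings together bound JAK2 molecules, which phosphorylate each other, the receptor tail and STAT5. Phosphorylated STAT5 dimers bind DNA and switch on genes that include PIM1, a survival kinase, and CISH and SOCS2, which encode inhibitors that act back on the receptor complex. SH2B3, also called LNK, is an adaptor that restrains JAK2. In cells with an activated JAK2 the pathway can signal without hormone, provided that a receptor of this type is present to hold the kinase. RNA levels, measured here, do not show phosphorylation, and counts per gene do not tell mutant from normal JAK2 transcripts.

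The promoters of EPOR and CISH are shown because these genes had the largest ratios among the 9, and because CISH is a textbook STAT5 target. Each is the 250 bases before the RefSeq start site, on the gene's own strand, from the minus strand of build GRCh38.p14: chr3:50611775-50612024 for CISH and chr19:11384315-11384564 for EPOR. Capitals in the CISH promoter mark matches to TTCNNNGAA, the palindromic core that STAT dimers bind, and capitals in the EPOR promoter mark a match on the other strand to AGATAA, a core bound by GATA factors.
CISH: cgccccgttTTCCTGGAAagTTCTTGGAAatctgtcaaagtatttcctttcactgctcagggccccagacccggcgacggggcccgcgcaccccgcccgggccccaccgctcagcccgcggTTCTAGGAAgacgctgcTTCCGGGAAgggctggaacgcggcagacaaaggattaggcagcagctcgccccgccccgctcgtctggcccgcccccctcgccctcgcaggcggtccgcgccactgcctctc
EPOR: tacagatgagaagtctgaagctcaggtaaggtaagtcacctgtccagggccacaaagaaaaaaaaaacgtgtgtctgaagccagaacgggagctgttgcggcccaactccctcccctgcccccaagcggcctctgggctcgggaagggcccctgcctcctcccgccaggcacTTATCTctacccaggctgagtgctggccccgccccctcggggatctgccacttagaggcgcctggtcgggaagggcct
The CISH promoter held 4 such STAT matches, whose first bases lay 241, 230, 129 and 112 bases before the start site. At least 1 match was found in 6.57% of 35116 RefSeq promoters of this length, and 4 or more in 5 of them, or 0.0142%. Among the 9 genes, all but SOCS2 had an entry, with 14 promoters in all, and CISH was the single gene with a STAT match. The GATA match of EPOR lay 78 to 73 bases before the start site. A match on either strand was found in 9.17% of promoters and in 2 of the genes, EPOR and SH2B3. A match is a stretch of letters and no measurement of binding.

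Levels are given as scaled TPM, that is deposited RPKM divided by each library's depth so that a library sums to 1000000 on average. TRIM28 (NM_005762), the check of the knockdown, stood at 190 scaled TPM in KD cells with hemin and 317 in KD cells without, against 400 in control cells with hemin and 421 in control cells without. The log2 ratio of KD over control was -1.07 with hemin and -0.41 without. In this table the row of TRIM28 holds whole numbers, unlike nearly all others, so it has no counting interval. Whether that row holds RPKM or reads could not be settled. It was scaled like the others, and its levels and ratios carry this limit. Without scaling to depth, the median ratio of KD over control over all genes shifted by 0.22 with hemin and -0.58 without. The gap between the TRIM28 ratios of the states thus depends on the scaling. Between 23524250 and 41201705 recovered reads per library lay on the transcripts used. Intervals are exact binomial ones at 95% on reads and cover counting error only. In each pair of libraries a gene was counted as different at 2-fold, if it reached 5 scaled TPM in either. A second test, an additive limma model with knockdown and hemin as terms over all 4 libraries, had 1 residual degree of freedom and pooled its spread over genes. "Rose" and "fell" are used for genes with an adjusted p up to 0.05 in that model. A model without that pooling called 0 genes, with 1124 genes for knockdown and 805 for hemin at an unadjusted p under 0.05.

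EPOR fell after KAP1 knockdown, and it was the member furthest from control in both states. EPOR (NM_000121, on chromosome 19) had 28.3 scaled TPM in KD cells with hemin and 20.5 in KD cells without, against 78.4 in control cells with hemin and 49.1 in control cells without. Both KD libraries were below both control libraries. For this and like statements on other genes below, the share of all genes separated in the same way was not counted. In bulk RNA, fewer cells of a type and less RNA per cell cannot be told apart. With hemin the level was 2.74-fold lower in KD cells, a log2 ratio of -1.45 (interval -1.56 to -1.38, from 1460 reads in KD and 3508 in control cells). Without hemin it was 2.37-fold lower, a log2 ratio of -1.24 (-1.40 to -1.13, from 591 reads in KD and 1926 in control cells). In the additive limma model the knockdown term was -1.35 ± 0.24 on the log2 scale (SE, Benjamini-Hochberg adjusted p = 4.97e-07). Of 10893 genes compared with hemin, 166 had a lower ratio than EPOR, or 1.52%, and of 10869 compared without hemin, 385 or 3.54%. Genes at least 2-fold lower made up 4.12% of all with hemin and 6.42% without, and of the 9 genes EPOR was the single one in each state. Genes at least 2-fold higher made up 6.01% with hemin and 6.73% without, and none of the 9 was among them.

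EPOR was higher with hemin in both genotypes. The log2 ratio of hemin over no hemin was 0.46 (0.33 to 0.61) in KD cells and 0.67 (0.59 to 0.75) in control cells, and the additive limma model did not call it (adjusted p = 0.152). KD cells with hemin, at 28.3 scaled TPM, still had less EPOR than control cells without it, at 49.1.

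**Figure D1:**
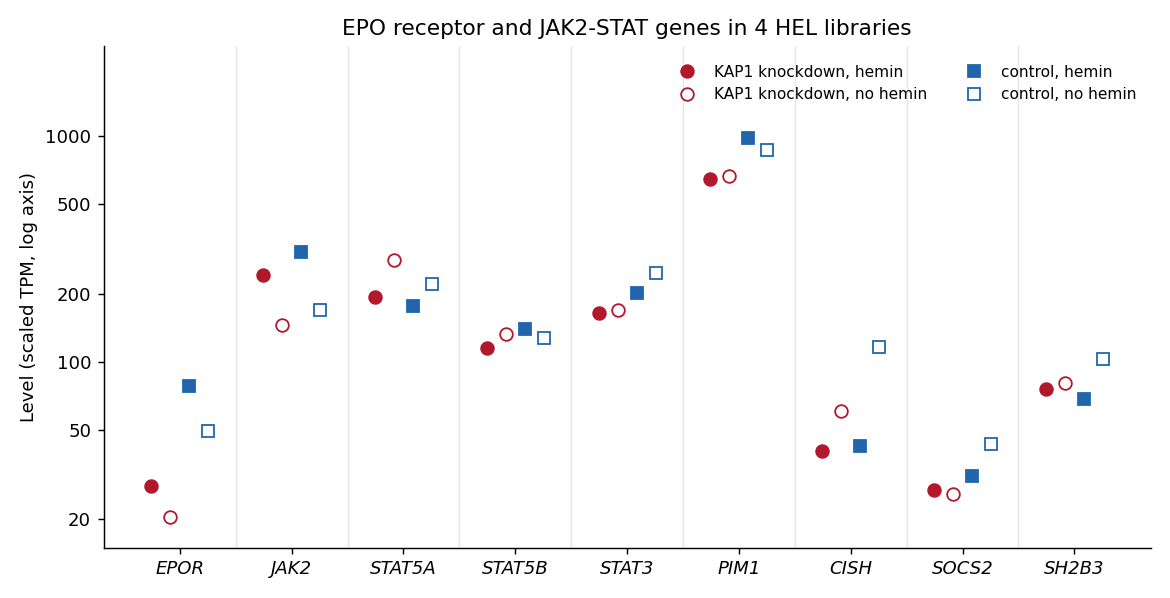
Scaled TPM of the 9 genes on a log axis in KD cells with and without hemin and control cells with and without hemin, 1 point for each library. Both KD points of EPOR lie below both control points, the hemin points of JAK2 lie above the points without hemin, and the CISH point of control cells without hemin, at 116, lies apart from the other libraries.

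JAK2, the kinase that docks on the receptor, rose with hemin and had no knockdown call. JAK2 (NM_004972, chromosome 9) had 241 scaled TPM in KD cells with hemin and 145 in KD cells without, against 307 in control cells with hemin and 169 in control cells without. Both hemin libraries were above both libraries without it. The hemin ratio was 1.66-fold in KD cells, a log2 ratio of 0.73 (0.70 to 0.77), and 1.82-fold in control cells, a log2 ratio of 0.86 (0.84 to 0.89). In the additive limma model the hemin term was 0.80 ± 0.22 (SE, adjusted p = 0.0115), and without a trend on expression its adjusted p was 0.0740. Genes that rose with hemin were 2.99% of 11150 tested and genes that fell 2.9%. In KD cells 771 of all genes had a higher hemin ratio than JAK2, or 7.13%, and in control cells 428 or 3.97%. KD over control was -0.35 on the log2 scale with hemin and -0.22 without (adjusted p = 0.386).

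The other 3 Janus kinases had no call. JAK1, which serves interferon and interleukin receptors, had 232 scaled TPM in KD cells with hemin, 202 in KD cells without, 162 in control cells with hemin and 185 in control cells without. TYK2, its frequent partner, had 123, 155, 129 and 129 in the same order. JAK3, which pairs with the common gamma chain, had 55.2 scaled TPM in KD cells with hemin and 67.7 in KD cells without, against 51.3 in control cells with hemin and 107 in control cells without. In control cells JAK3 was thus 2.08-fold lower with hemin, a log2 ratio of -1.06, but the additive limma model did not call it (adjusted p = 0.0583, and 0.0391 with libraries scaled to equal medians of all genes). None of the 4 kinases was called for knockdown.

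The STAT members carry the signal to the nucleus, and none of the 3 was called for either term. STAT5A (NM_003152) had 194 scaled TPM in KD cells with hemin and 281 in KD cells without, against 176 in control cells with hemin and 221 in control cells without. Both KD libraries had more than their control, with log2 ratios of 0.14 with hemin and 0.34 without, and both hemin libraries had less than those without it. The adjusted p was 0.486 for knockdown and 0.270 for hemin in the additive limma model. STAT5B (NM_012448) varied least of the 9, with 115 scaled TPM in KD cells with hemin and 133 in KD cells without, against 139 in control cells with hemin and 127 in control cells without. Its highest library was 1.21-fold above its lowest, and its adjusted p was 0.797 for knockdown and 0.944 for hemin. STAT5A and STAT5B are neighbouring and nearly identical genes on chromosome 17, and the sources used here do not say how reads common to both were counted. STAT3 (NM_139276), used more by interleukin receptors, had 163 scaled TPM in KD cells with hemin and 169 in KD cells without, against 201 in control cells with hemin and 247 in control cells without. Both KD libraries of STAT3 were below both control libraries, with log2 ratios of -0.30 with hemin and -0.54 without (adjusted p = 0.172). Its 3 listed transcripts gave ratios within 0.02 of each other on the log2 scale.

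Of the STAT genes outside the 9, STAT2, an interferon factor, fell after knockdown (adjusted p = 0.0222 in the additive limma model), without a call when libraries were scaled by their plain totals (adjusted p = 0.0752). STAT4 rose after knockdown. STAT4, best known from interleukin-12 signalling, had 27.3 scaled TPM in KD cells with hemin and 17.8 in KD cells without, against 12.1 in control cells with hemin and 11.1 in control cells without (adjusted p = 0.0039).

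PIM1 was the most abundant of the 9 and had no call. PIM1 (NM_002648, chromosome 6) had 642 scaled TPM in KD cells with hemin and 667 in KD cells without, against 973 in control cells with hemin and 866 in control cells without. Both KD libraries were below both control libraries, with log2 ratios of -0.60 with hemin and -0.38 without. The adjusted p was 0.0785 for knockdown and 0.914 for hemin in the additive limma model.

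CISH, the inhibitor with the STAT matches shown above, fell with hemin. CISH (NM_145071, chromosome 3) had 40.3 scaled TPM in KD cells with hemin and 60.7 in KD cells without, against 42.5 in control cells with hemin and 116 in control cells without. The library of control cells without hemin was the high one, and the libraries with hemin were both lower than those without. The log2 hemin ratio was -0.59 (-0.69 to -0.49) in KD cells, and in control cells CISH was 2.72-fold lower, a log2 ratio of -1.44 (-1.54 to -1.37). The additive limma model gave a hemin term of -1.01 ± 0.23 (SE, adjusted p = 0.000861). In control cells 96 of 10790 genes, or 0.890%, had a lower hemin ratio than CISH. Genes at least 2-fold lower with hemin were 1.71% in KD cells, with none of the 9 among them, and 2.59% in control cells, with CISH the single one of the 9. At least 2-fold higher with hemin were 2.26% of genes in KD cells and 2.59% in control cells, and none of the 9. The difference between the hemin ratios of KD and control cells was 0.86 on the log2 scale, with a counting interval of 0.73 to 0.99, but it has no replicate to be tested against.

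The knockdown ratio of CISH differed between the states. KD over control was -0.08 with hemin (-0.17 to 0.02) and -0.94 without (-1.03 to -0.86), 1.91-fold lower, and the additive limma model did not call the knockdown term (adjusted p = 0.104). The difference with hemin was thus within counting error, and it was 0.02 when libraries were scaled by their plain totals. Both transcripts of CISH gave the same ratios within 0.015 on the log2 scale.

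SOCS2, which blocks signalling by growth hormone and related receptors, was the least abundant of the 9. SOCS2 (NM_003877) had 27.1 scaled TPM in KD cells with hemin and 25.8 in KD cells without, against 31.2 in control cells with hemin and 43.2 in control cells without. As for CISH, the library of control cells without hemin was the highest. KD over control was -0.20 with hemin and -0.73 without, and the additive limma model called neither term (adjusted p = 0.153 for knockdown and 0.709 for hemin). The hemin ratio of 0.07 in KD cells lay within counting error (-0.07 to 0.21) and was -0.02 with libraries scaled to equal medians, whereas in control cells it was -0.46.

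SH2B3 (NM_005475, chromosome 12) had 75.7 scaled TPM in KD cells with hemin and 80.1 in KD cells without, against 68.4 in control cells with hemin and 102 in control cells without. Its highest level too was in control cells without hemin. KD over control was 0.15 with hemin and -0.35 without, and neither term was called (adjusted p = 0.808 for knockdown and 0.460 for hemin in the additive limma model). The libraries of the KD and control groups overlapped.

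**Figure D2:**
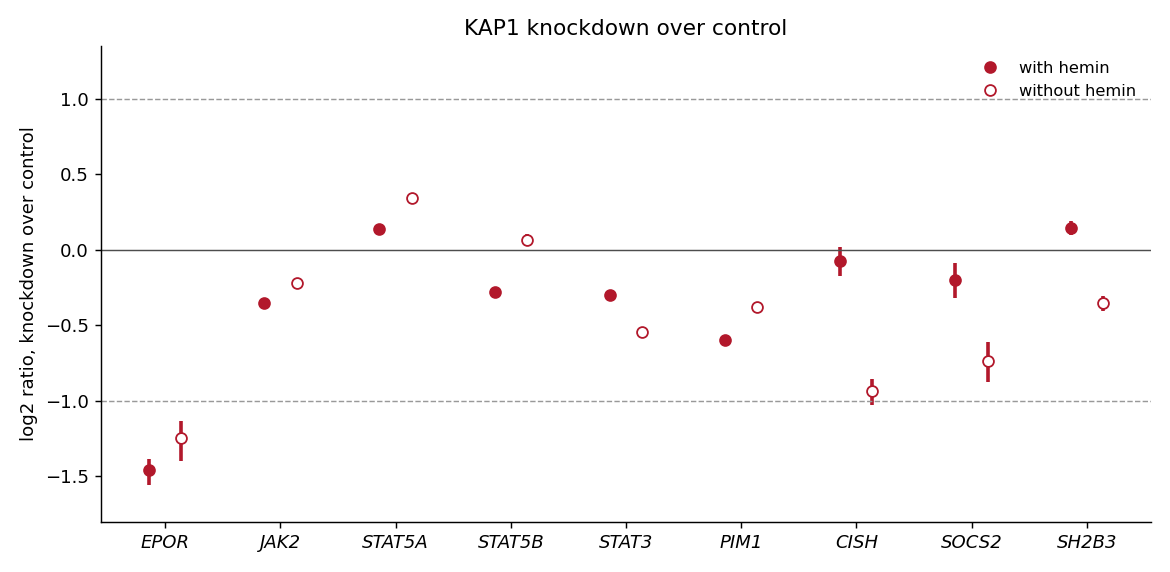
Log2 ratio of KD over control for the 9 genes with and without hemin, with bars for the 95% counting interval and dashed lines at 2-fold. EPOR lies past the line in both states, at -1.45 and -1.24, and CISH moves between -0.08 with hemin and -0.94 without.

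**Figure D3:**
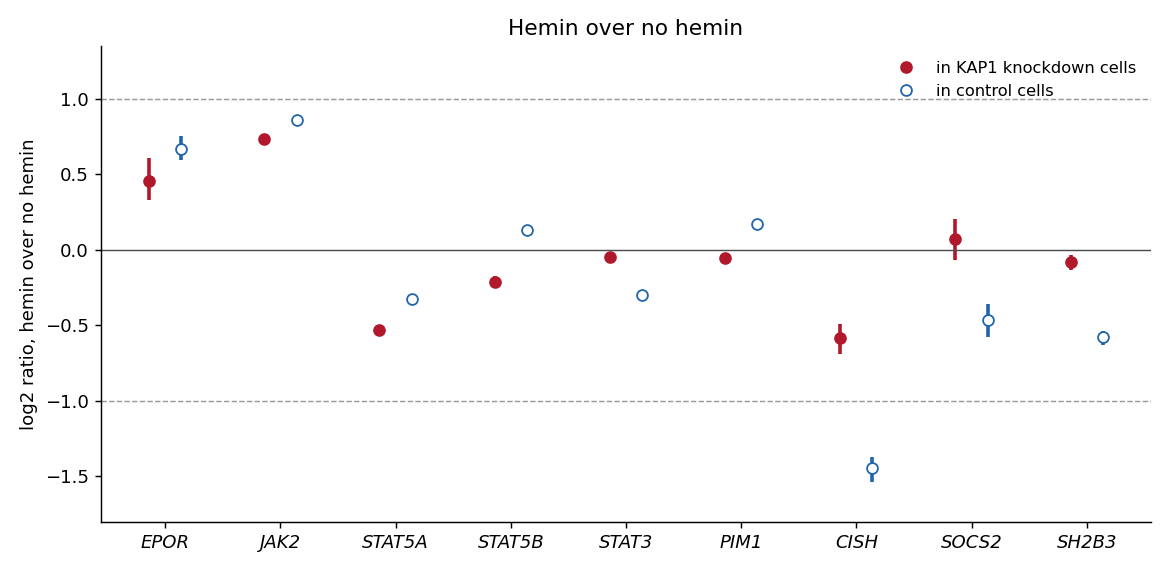
Log2 ratio of hemin over no hemin for the 9 genes in KD and control cells, with bars for the 95% counting interval and dashed lines at 2-fold. EPOR and JAK2 lie above 0 in both genotypes, and CISH lies below 0 in both, past the line in control cells at -1.44.

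Over the 9 genes, the median log2 ratio of KD over control was -0.28 with hemin and -0.38 without, beside 0.01 and 0.03 over all genes. Of the 9 ratios 7 were below 0 in each state, where STAT5A was above 0 in both, STAT5B without hemin and SH2B3 with hemin. With plain library totals, which moved the median of all genes by 0.10 with hemin and 0.12 without, 6 were below 0 with hemin and 7 without. The additive limma model called 1 of the 9 as fallen after knockdown, EPOR, and 0 as risen, where 10.2% of 11150 genes fell and 12.1% rose. For hemin it called 1 as risen, JAK2, and 1 as fallen, CISH, where 2.99% of all genes rose and 2.9% fell. The median hemin ratio was -0.05 in KD cells and -0.30 in control cells, beside 0.00 and -0.01 over all genes.

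By mean level, PIM1 came first of the 9 at 787 scaled TPM, rank 152 of 14903 genes, and its lowest library was above every library of the others. STAT5A at 218, JAK2 at 215 and STAT3 at 195 followed, with overlapping libraries. STAT5B came next at 128, with all its libraries below those of STAT3 and above those of SH2B3, at 81.6. SH2B3, CISH at 65.0, EPOR at 44.0 and SOCS2 at 31.8 each overlapped the next in the levels of their libraries. The receptor gene, at rank 4012, was thus well below its kinase, at rank 668.

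**Figure D4:**
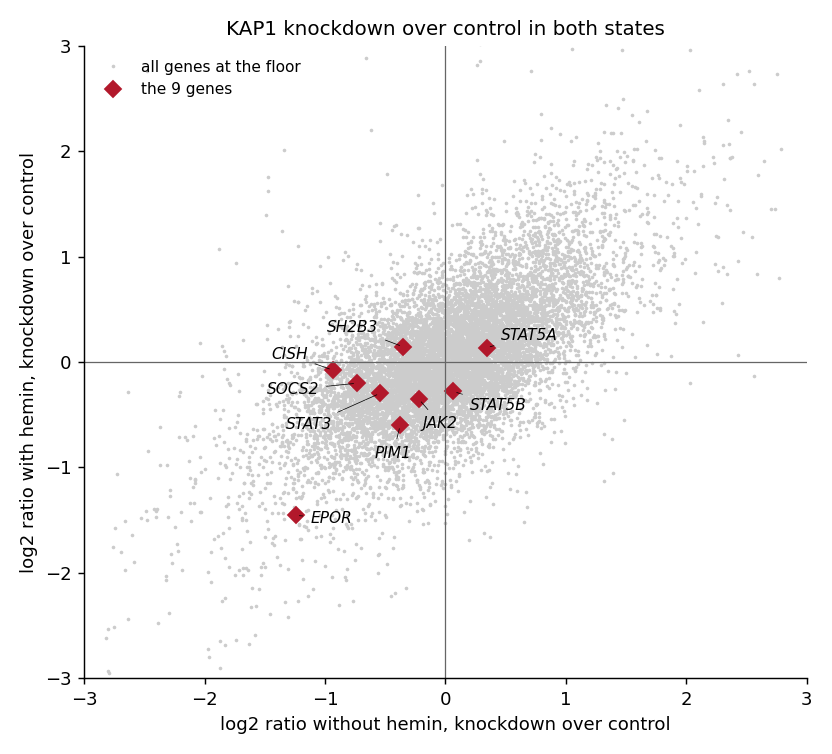
Log2 ratio of KD over control without hemin (x axis) and with hemin (y axis) for the 9 genes, named, and for all genes that reached the floor, in grey, with 47 of 11150 genes outside the axes. EPOR lies in the lower left at -1.24 and -1.45, and the other members lie within 1 log2 unit of 0 in both states.

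The wider pathway was taken from 127 other genes in 8 lists, of which 109 were in the table. In KD cells with hemin, 4 of the 97 that reached the floor stood 2-fold or more above control and 5 stood 2-fold or more below it, near the shares of all genes, 6.01% and 4.12%. Without hemin 4 of 98 stood above and 14 below, where the shares of all genes were 6.73% and 6.42%. In the additive limma model 7 of 99 rose and 23 fell after knockdown, where 12.1% of all genes rose and 10.2% fell. With plain totals 8 of them rose and 16 fell, beside 1607 and 744 of all genes. Their median log2 ratio was -0.17 with hemin and -0.29 without, beside 0.01 and 0.03 over all genes. For hemin 5 of 99 rose and 8 fell, where 2.99% of all genes rose and 2.9% fell. With plain totals 2 of them rose and 6 fell, beside 185 and 171 of all genes.

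Of the receptors related to EPOR, 17 of 28 listed reached the floor, and 5 of them, EPOR included, fell and 1 rose after knockdown, where 10.2% of all genes fell and 12.1% rose. CSF2RB, the beta chain common to the receptors for GM-CSF, interleukin-3 and interleukin-5, had 137 scaled TPM in KD cells with hemin and 103 in KD cells without, against 269 in control cells with hemin and 263 in control cells without. Its log2 ratios were -0.98 with hemin and -1.34 without (adjusted p = 5.66e-06). IL7R, the interleukin-7 receptor chain, had 1.08 and 1.36 scaled TPM in the KD libraries with and without hemin, against 7.65 and 16.8 in the control libraries with and without it, an adjusted p of 1.05e-10. IFNGR2, a chain of the interferon gamma receptor that binds JAK2, had 8.35 and 11.8 scaled TPM in those KD libraries, against 19.7 and 34.3 in the control libraries (adjusted p = 4.61e-06). IL9R was the receptor that rose, with 36.6 and 39.9 scaled TPM in the KD libraries with and without hemin, against 8.75 and 14.6 in the control libraries with and without it (adjusted p = 4.43e-10). LEPR, the leptin receptor, was 2.33-fold higher with hemin in KD cells, at 19.7 scaled TPM with hemin and 8.18 without, but had 12.2 with hemin and 12.4 without in control cells and was not called for hemin (adjusted p = 0.190).

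Among 14 ligand genes, 2 were in the table, LIF and OSM, both of the interleukin-6 family, and EPO itself was not listed. LIF fell after knockdown, with 26.0 and 10.3 scaled TPM in the KD libraries with and without hemin, against 46.2 and 35.9 in the control libraries with and without it (adjusted p = 3.5e-06). It rose with hemin (adjusted p = 0.0186), a call that was lost with plain totals (adjusted p = 0.0633). OSM, itself a STAT5 target, fell after knockdown, with 1.22 and 1.09 scaled TPM in the KD libraries with and without hemin, against 4.26 and 7.95 in the control libraries (adjusted p = 0.000295).

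Of 26 genes listed as STAT5 or STAT3 targets, 23 were tested. After knockdown 9 of them fell and 1 rose, beside shares of all genes of 10.2% and 12.1%. The lists overlap: CISH, SOCS1, SOCS2 and SOCS3 are also counted in the SOCS family, and OSM among the ligands. Whether STAT factors drive the listed targets in these cells was not tested. The list also holds genes tied to ERK and RAS signalling, such as DUSP6 and SPRED1, so its counts do not measure STAT activity. With plain totals 6 fell and 1 rose. For the hemin term 7 fell, CISH included, and 1 rose, beside shares of all genes of 2.9% and 2.99%. DUSP6, a phosphatase that turns off ERK, fell for both terms, with 15.0 and 24.4 scaled TPM in the KD libraries with and without hemin, against 28.4 and 71.5 in the control libraries with and without it. Its adjusted p was 1.04e-05 for knockdown and 0.00165 for hemin. TFRC, the transferrin receptor that takes up iron, likewise fell for both, with 203 and 332 scaled TPM in the KD libraries with and without hemin, against 271 and 688 in the control libraries (adjusted p = 0.00579 for knockdown and 0.000197 for hemin). EGR1, an immediate early factor, was 2.37-fold lower in KD cells with hemin, at 5.84 scaled TPM in KD and 14.5 in control cells, and fell for both terms (adjusted p = 0.00177 for knockdown and 0.0114 for hemin). SPRED1, an inhibitor of RAS signalling, was 2.21-fold lower in KD cells without hemin and fell after knockdown (adjusted p = 0.00914). CCND3, a G1 cyclin, was the target that rose after knockdown, with 890 and 972 scaled TPM in the KD libraries with and without hemin, against 402 and 503 in the control libraries (adjusted p = 1.81e-05). CCND1, another G1 cyclin, fell with hemin, with 8.21 scaled TPM with hemin and 30.1 without in KD cells, and 9.86 with hemin and 31.7 without in control cells (adjusted p = 4.66e-09). CDKN1A, a cell cycle inhibitor, rose with hemin, with 15.9 scaled TPM with hemin and 4.46 without in KD cells, and 7.17 with hemin and 3.17 without in control cells (adjusted p = 0.00129). BCL2L1, which encodes the survival factor BCL-XL, lies outside the rule for named genes and is given as a textbook erythropoietin target. It had 297 and 404 scaled TPM in the KD libraries with and without hemin, against 296 and 422 in the control libraries, and was not called for either term.

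The SOCS family, with CISH and SOCS2 among its 8 genes, had 3 that fell and 0 that rose after knockdown, and 2 that fell with hemin. Over all genes 10.2% fell and 12.1% rose after knockdown, and 2.9% fell with hemin. With plain totals 2 fell after knockdown and 1 with hemin. The family's median log2 ratio was -0.26 with hemin and -0.83 without, beside 0.01 and 0.03 over all genes, and 7 of 8 ratios were below 0 in each state. With plain totals 6 were below 0 with hemin and 7 without. SOCS3, which binds the receptor and blocks JAK2, had 25.0 and 25.3 scaled TPM in the KD libraries with and without hemin, against 37.8 and 69.4 in the control libraries with and without it (adjusted p = 0.000296). SOCS1, which blocks JAK kinases directly, had 6.50 and 10.4 scaled TPM in the KD libraries with and without hemin, against 9.03 and 21.7 in the control libraries, and fell for both terms (adjusted p = 0.0401 for knockdown and 0.024 for hemin). With plain totals SOCS1 lost both calls, with adjusted p of 0.102 for knockdown and 0.0663 for hemin. SOCS3 and SOCS1 were highest in control cells without hemin, as CISH, SOCS2 and SH2B3 were. This was also so for genes that are not inhibitors, among them STAT3, JAK3, TFRC and IL7R. The share of all genes highest in that library was not counted.

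**Figure D5:**
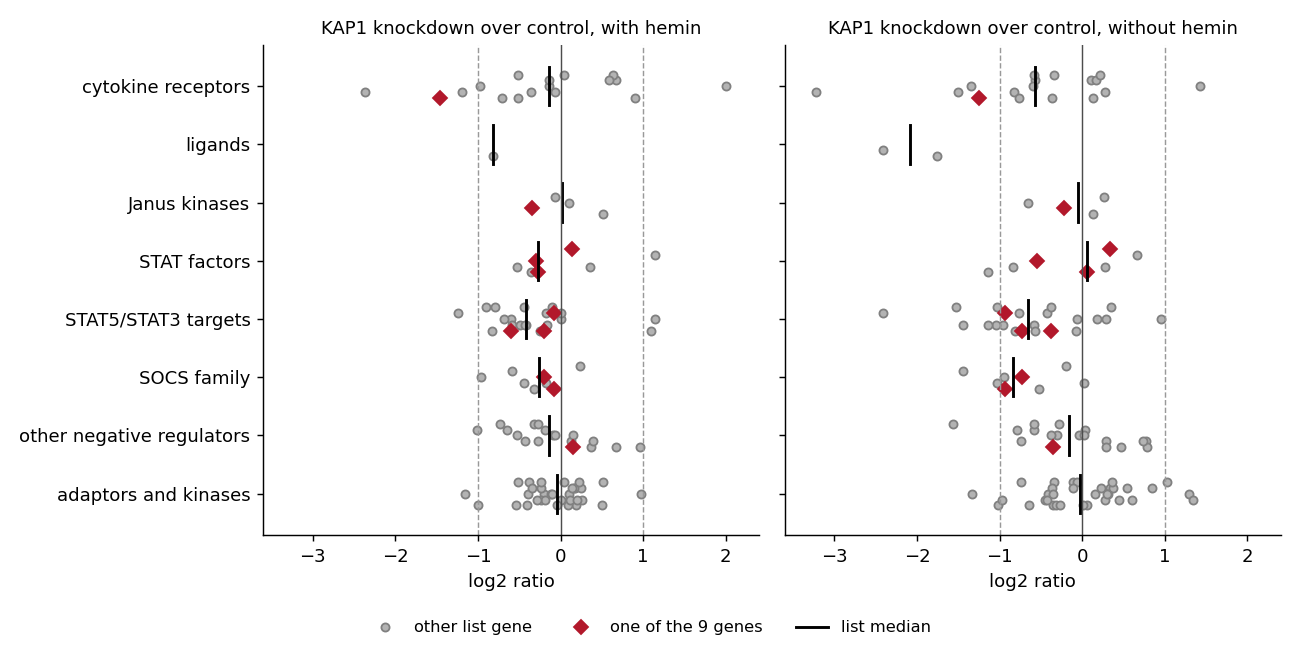
Log2 ratio of KD over control with hemin (left) and without hemin (right) for every gene that reached the floor in 8 pathway lists, with the 9 genes as red diamonds, list medians as black bars and dashed lines at 2-fold. The SOCS family has a median of -0.26 with hemin and -0.83 without, and EPOR lies at -1.45 with hemin and -1.24 without, among the lower receptors.

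Of the other negative regulators, 18 of 19 were tested, and 3 fell and 1 rose after knockdown, against 10.2% and 12.1% of all genes. With plain totals 2 fell and 2 rose. RNF41, a ubiquitin ligase that acts on cytokine receptors, had 29.4 and 29.9 scaled TPM in the KD libraries with and without hemin, against 49.2 and 89.5 in the control libraries with and without it (adjusted p = 2.52e-05). STAM, an endosomal sorting protein, was 2.02-fold lower in KD cells with hemin, at 49.0 scaled TPM in KD and 99.4 in control cells, and fell (adjusted p = 0.00124). Of 34 adaptors and kinases tested, 3 fell and 3 rose after knockdown, near those shares of all genes. PIK3CD, a catalytic subunit of PI3 kinase, fell, with 7.98 and 5.16 scaled TPM in the KD libraries with and without hemin, against 18.4 and 13.8 in the control libraries (adjusted p = 0.000203). HRAS, a small GTPase, was 2.53-fold higher in KD cells without hemin, at 41.5 scaled TPM in KD and 16.1 in control cells, and rose (adjusted p = 0.0019). PIK3R2, a regulatory subunit of PI3 kinase, was 2.03-fold higher in KD cells without hemin and rose (adjusted p = 0.0123). With plain totals 1 of these 34 fell and 3 rose.

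Markers of blood lineages and other cells moved between the libraries as well. The summed level of 9 erythroid markers was 75291 scaled TPM in KD cells with hemin and 18608 in KD cells without, against 59212 in control cells with hemin and 15138 in control cells without. Most of each sum was the globin genes HBG1 and HBG2, with HBG2 alone at 32690, 7212, 28751 and 6985 in the same order. Of the 9 markers 6 rose with hemin, beside 2.99% of all genes. After knockdown 2 of the 9 rose and 0 fell, beside 12.1% and 10.2% of all genes. HBA1 was 2.26-fold higher in KD than in control cells with hemin and 2.49-fold higher without. In the ratios of KD over control, 4 of the 9 were below 0 with hemin and 2 without. For 6 megakaryocyte markers the sums were 1452, 1619, 1137 and 2406 in the same order, and most of each was ITGA2B, at 874, 1106, 891 and 1990. Of the 5 of these markers that were tested, 3 rose and 0 fell after knockdown, where 12.1% of all genes rose and 10.2% fell. THBS1, the thrombospondin gene, was 39.3-fold higher in KD than in control cells with hemin and 15.3-fold higher without. PF4 was 4.61-fold and GP1BA 3.02-fold higher in KD than in control cells with hemin. Both were lower with hemin in control cells, PF4 at 14.5 with hemin and 58.4 without, and GP1BA at 47.6 and 120. Without hemin THBS1 was the single marker of the 5 at least 2-fold higher in KD cells, and their median log2 ratio was 0.16. In each state 2 of the 5 ratios of KD over control were below 0. For 7 myeloid, mast cell and eosinophil markers, of which MPO was not listed, the sums were 35.4, 27.8, 842 and 1522 in the order given above. Most of both control sums was PRG2, at 647 with hemin and 1345 without. The 4 of these markers that reached the floor all fell after knockdown, beside 10.2% of all genes. The sums were 38.7, 29.2, 90.4 and 46.7 for epithelial markers and at most 28.0 in any library for T cell, B cell and fibroblast markers, with CD3D, CD3E, MS4A1, COL1A1, COL1A2, COL3A1 and CDH1 among those not listed. The myeloid sum and the EPOR level were thus both lower in KD libraries, while the erythroid sum was higher in KD than in control cells in each state. The erythroid sum and the JAK2 level were both higher with hemin. The part of these markers in the results was not tested.

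Of the 9 genes, 3 spanned at least 1 log2 unit over the 4 libraries, and their closest genes by pattern were found among 11150 genes, by the Euclidean distance between centred log2 levels. For EPOR these were SLC35D2 at a distance of 0.08, S100A6 at 0.11 and SNHG1 at 0.12. SLC35D2, a nucleotide sugar transporter gene, had 19.5 and 15.1 scaled TPM in the KD libraries with and without hemin, against 58.2 and 34.7 in the control libraries with and without it. For JAK2 they were ART4 at 0.04, CUL4B at 0.06 and LRRC58 at 0.07. ART4, which carries the Dombrock blood group, had 19.7 scaled TPM with hemin and 11.9 without in KD cells, and 25.0 with hemin and 13.9 without in control cells. For CISH they were TNFRSF12A at 0.05, PLA2G6 at 0.14 and RP11-632K20.1 at 0.15. TNFRSF12A, the receptor for the cytokine TWEAK, had 3.09 and 5.03 scaled TPM in the KD libraries with and without hemin, against 3.35 and 9.63 in the control libraries. With 4 libraries, many genes have like patterns, and these distances are a description.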

How the data were processed

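RNA-seq of 4 HEL libraries was analysed, 1 for each of 4 groups. Per the file headers, the deposited values are RPKM for each RefSeq transcript. The submitters' processing notes name Bowtie and build hg19 without their role. Per the labels' protocols, libraries were made with a TruSeq kit, which does not mark strand, so overlapping antisense transcripts cannot be told apart. No value was 0, and genes without reads in a library may be missing.

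The deposited RPKM values still carried depth: within a row they were whole reads times a factor for each column. Reads were recovered for 24533 of 24533 rows, within 0.0002 reads plus a relative 4e-09. The smallest whole numbers that fit a row were taken, so a row whose counts share a divisor has too few reads. Totals of recovered reads are therefore lower limits, and counting intervals of such rows are too wide. The other 5 rows held whole numbers, TRIM28 among them. The design had assumed values already scaled to depth. Library sizes were therefore adjusted by the trimmed mean of log ratios (trims 0.3 and 0.05), with factors of 1.03 and 1.01 in KD cells with and without hemin and 0.993 and 0.964 in control cells with and without it. Each gene took the values of the transcript whose mean was highest. Ratios are on the scale of log2(scaled TPM + 0.5), which understates changes of low genes. The floor was 5 scaled TPM.

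Comparisons of 2 libraries carry no p-value. The additive model used limma 3.58.1 in R 4.3.3 with a trend and Benjamini-Hochberg adjustment over all 11150 genes at the floor. The code was run on simulated data with additive effects, independent noise and no interaction. That run cannot show whether the p-values hold in the real libraries. The model's residual is the interaction itself, and its p-values measure only the spread between these libraries. Alternatives were other scalings, pseudocounts, floors, fold limits, transcript choices and models.

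The 9 genes and all lists were chosen with earlier results of these data known. Named beyond the 9 were, for each list and comparison, up to 4 genes past 2-fold with the largest ratios, and 3 pattern neighbours of a member. Some genes that this rule names are not reported here. Promoters came from RefSeq (GRCh38.p14), matched by symbol.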

Additional observations from a re-analysis of the deposited data

Results flagged for a closer look

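STAT5B, PIM1, SOCS2 and SH2B3 had ratios of opposite sign under the same contrast in the other state or genotype. How many of all genes do so was not counted. A ratio near 0, such as 0.06, -0.05 or 0.07 below, changes sign easily. With 1 library in each group the difference was not tested in any of these 4 genes. For STAT5B, KD over control was -0.28 on the log2 scale with hemin and 0.06 without, a difference of -0.343. The hemin ratio of STAT5B was -0.21 in KD cells and 0.13 in control cells, the same difference of -0.343 by construction. For PIM1 the hemin ratio was -0.05 in KD cells and 0.17 in control cells, a difference of -0.223. For SOCS2 the hemin ratio was 0.07 in KD cells, within counting error of 0, and -0.46 in control cells, a difference of 0.532. For SH2B3, KD over control was 0.15 with hemin and -0.35 without, a difference of 0.498.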

How the results depend on the processing

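The calls of EPOR, JAK2 and CISH rest on pooling the spread over genes. In an ordinary linear model without pooling, 0 members fell after knockdown, 0 rose and 0 fell with hemin, with adjusted p of 0.489 for EPOR after knockdown and 0.680 for JAK2 and 0.718 for CISH with hemin. Without a trend on expression 0 members rose with hemin, since JAK2 lost its call. Under the other models and settings tried, the adjusted p ranged from 9.17e-07 to 0.000423 for EPOR and from 0.000448 to 0.0273 for CISH, and EPOR, JAK2 and CISH all kept their calls with plain totals, equal medians and another pseudocount, transcript choice or floor. No paired analysis was possible because each group is a single library.

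A limit of 1.5-fold counted 2 members lower in KD cells with hemin and 3 without, and with hemin 1 higher and 1 lower in KD cells and 2 higher and 1 lower in control cells. Over all genes it counted 1638 higher and 1391 lower in KD cells with hemin, 1928 and 1849 without, and with hemin 1305 higher and 1158 lower in KD cells and 996 and 887 in control cells. The deposited values as they stand, which still carry depth, put 4 members at least 2-fold lower in KD cells without hemin, 3 at least 2-fold higher with hemin in KD cells and 1 in control cells, and 4 with hemin ratios at least 2-fold apart between KD and control cells, where scaled values gave 0. They changed the sign of 10 of the 36 member ratios. Plain library totals changed the sign of 1, CISH after knockdown with hemin, and equal medians of all genes that of 1, SOCS2 with hemin in KD cells. Pseudocounts, floors and transcript choice left all 36 within their counting intervals.

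Scaling moved the split of all genes. At least 2-fold higher and lower in KD cells with hemin were 655 and 449, with plain totals 822 and 363 and as deposited 1107 and 298. Without hemin they were 731 and 698, with plain totals 960 and 517 and as deposited 145 and 2441. With hemin in KD cells they were 245 and 185, with equal medians 177 and 266 and as deposited 5026 and 11, and in control cells 279 and 279, as deposited 453 and 195. The deposited values still carry depth, which was 41201705 recovered reads in KD cells with hemin and 23524250 in KD cells without. Why plain totals and equal medians moved the split was not tested. EPOR and SOCS2, with 591 and 670 reads in KD cells without hemin, had the fewest reads of the 9.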
